A study of Mus musculus with 3 samples.

Results

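The Kruppel-like factor (KLF) genes Klf2, Klf3, Klf4, Klf5, Klf6, Klf9, Klf10, Klf13 and Klf15 were followed through the cell types of the aorta, and were chosen by symbol as 9 of the 32285 genes in the deposited single-cell count matrices. All 9 were found. They were read beside Fos and Jun, immediate early genes that rise when a tissue is taken apart into cells. The aortas came from male mice on a C57BL/6J background in which the mouse Apoe gene had been replaced at its own locus by the human APOE2, APOE3 or APOE4 gene. No group kept mouse Apoe, and all were given a Western diet (42% fat and 0.2% cholesterol) for 16 weeks from 12 weeks of age. Whole aortas were digested with enzymes at body temperature, and the cells were combined by genotype into 1 library each, from 6 mice for APOE2, 5 for APOE3 and 7 for APOE4. A genotype therefore had no replicate, and genotype and library cannot be told apart. Values below are given in the order APOE2, APOE3 and APOE4.

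Of 12288, 7247 and 8971 barcodes, 11772, 6737 and 8248 cells were kept, with medians of 12047, 17618 and 13521.5 unique molecular identifiers (UMIs, counted RNA molecules) per cell. Markers named 15864 cells as smooth muscle-like, 3000 as fibroblast-like, 145 as endothelial-like, 908 as macrophage-like, 244 as T lymphocyte-like, 326 as B lymphocyte-like and 95 as neutrophil-like, and 6175 cells in 8 clusters stayed unnamed. Each named class held all of its own markers in every library. The endothelial-like class had 115, 11 and 19 cells, the T lymphocyte-like class 123, 19 and 102, the B lymphocyte-like class 41, 11 and 274, and the neutrophil-like class 78, 10 and 7. The libraries shared 14 to 27 cell barcodes in pairs. Median mitochondrial shares in smooth muscle-like cells were 2.29%, 1.58% and 2.89%. The summed level of the 10 smooth muscle markers was 53583 to 61711 CPM (counts scaled to a total of 1000000 UMIs) in smooth muscle-like cells and 1106 to 30860 CPM in the other named classes. Some classes also held markers of related cells, unevenly between libraries. Lymphatic endothelial markers summed to 925, 118 and 0 CPM in endothelial-like cells. Plasma cell markers summed to 8243, 150 and 409 CPM in B lymphocyte-like cells. Acta2 gave an upper estimate of carried smooth muscle RNA. Its level in a class was taken as a share of that in smooth muscle-like cells of the same library. What that share would bring of a member is given beside some of the results it touches.

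KLF proteins are transcription factors that bind GC-rich and CACCC-type DNA through a conserved zinc finger domain at their C-terminal end. In vessels, Klf2 and Klf4 are the factors that laminar blood flow induces in endothelium through the kinase MEK5, the kinase ERK5 and MEF2 factors, and they raise Nos3 and Thbd and restrain inflammation. Klf4 also takes part in the loss of the contractile state of smooth muscle, Klf5 in smooth muscle growth, and Klf15 and Klf9 answer glucocorticoids. Several members respond to serum and stress within minutes, as Fos does.

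The promoters of Klf2, Klf4, Fos and Jun are shown because Klf2 and Klf4 differed most among the members between smooth muscle-like cells high and low in Fos and Jun, and because the DNA upstream of a start site is where flow-activated and immediate early signals are read. The sequences are from RefSeq (GRCm38.p6) and stop before the first base of the annotated gene. Promoters of 7 of the 9 members were matched, Klf5 and Klf10 being the others. Capitals mark TGACG on either strand, the MEF2 site and TATAAA.
Klf2, chr8:72318812-72319032, plus strand: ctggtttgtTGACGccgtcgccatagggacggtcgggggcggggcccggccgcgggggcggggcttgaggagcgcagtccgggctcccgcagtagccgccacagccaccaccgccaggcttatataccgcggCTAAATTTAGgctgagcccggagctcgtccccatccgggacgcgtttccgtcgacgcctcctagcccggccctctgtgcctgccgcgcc
Klf4, chr4:55532476-55532725, minus strand: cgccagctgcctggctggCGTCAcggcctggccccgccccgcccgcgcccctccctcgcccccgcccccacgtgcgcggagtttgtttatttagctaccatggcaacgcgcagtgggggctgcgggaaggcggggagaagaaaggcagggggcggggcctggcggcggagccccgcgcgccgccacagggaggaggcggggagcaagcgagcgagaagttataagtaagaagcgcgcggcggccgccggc
Fos, chr12:85473640-85473889, plus strand: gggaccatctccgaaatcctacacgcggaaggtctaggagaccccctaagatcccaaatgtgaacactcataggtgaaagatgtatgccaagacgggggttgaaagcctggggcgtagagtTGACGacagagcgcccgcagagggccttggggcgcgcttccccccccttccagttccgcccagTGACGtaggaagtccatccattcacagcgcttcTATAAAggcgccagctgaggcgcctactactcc
Jun, chr4:95052223-95052472, minus strand: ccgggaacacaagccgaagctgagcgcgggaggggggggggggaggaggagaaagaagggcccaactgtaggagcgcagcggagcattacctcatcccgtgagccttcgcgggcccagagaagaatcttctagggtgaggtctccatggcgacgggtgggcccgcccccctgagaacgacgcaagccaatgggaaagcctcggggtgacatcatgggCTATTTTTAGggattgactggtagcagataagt

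Windows of 300 bases, from 250 before to 50 after the start, were searched on both strands in these genes and in 32851 promoters in all. Positions are counted from the start as 0. The MEF2 site lay at -118 to -109 of Klf2 and at -33 to -24 of Jun, and 0.557% of all promoters held it. TGACG, the core shared by CRE sequences, stood at -241 to -237 of Klf2, at -232 to -228 of Klf4 and at 2 places of Fos, as in 20.8% of all promoters. It was also in the windows of Klf3, Klf9, Klf13 and Klf15 and not in those of Klf6 and Jun. No window of these 9 genes held the whole CRE (TGACGTCA, 1.79% of all promoters, which contains TGACG), the AP-1 sequence TGAGTCA (5.2%) or a CArG box (1.63%). TATAAA was in Fos alone among them (13.6% of all promoters). CACCC was found in Klf2, Klf3, Klf9, Klf13, Klf15 and Jun, and in 57.5% of all promoters. The Klf2 and Klf4 windows were 69.3% and 74.3% G and C, against a median of 52.7%. A match gives letters only and does not show that a factor binds there. Sites more than 250 bases before the start were not searched, so a missing match holds for the window only.

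The question of the class comparison was in which cells of the aorta each member was high. Each class was set against the mean of the other 5 classes that held at least 10 cells in every library, in an edgeR quasi-likelihood fit over 12269 genes with the library as a block. Of 54 pairs of member and class, 14 passed an adjusted p of 0.05 and a 2-fold difference. Members passed in 2 pairs for smooth muscle-like cells (26% of all genes passed), 2 for fibroblast-like (22.4%), 3 for endothelial-like (16.6%), 2 for macrophage-like (20.4%), 2 for T lymphocyte-like (24.5%) and 3 for B lymphocyte-like cells (20.3%). The p-values measure only the spread between the 3 pooled libraries, which differ in genotype.

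Klf2 (ENSMUSG00000055148, chr8:72319033-72321656, plus strand, GRCm38), the flow-induced factor of endothelium, reached 1171, 1097 and 1102 CPM in endothelial-like cells. This was 1123 ± 41.5 CPM (SD, n = 3 libraries), and no other class overlapped it. The next class was the neutrophil-like one, with 605, 533 and 184 CPM in few cells. Against the mean of the other classes, Klf2 was 1.99 higher on the log2 scale in endothelial-like cells (SE 0.20, edgeR adjusted p = 3.8e-07). Klf2 was 163, 216 and 477 CPM in smooth muscle-like cells and 179, 200.3 and 251 CPM in fibroblast-like cells, and macrophage-like cells held 261, 359.5 and 283 CPM. The smooth muscle-like range covered those of the fibroblast-like and macrophage-like cells, which did not overlap each other. Smooth muscle-like cells were the only one of the 3 large classes whose APOE4 value lay above all its other values by more than 1.5-fold.

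Klf4 (ENSMUSG00000003032, chr4:55527143-55532466, minus strand), a zinc finger factor named for its role in the gut and known in vessels for flow response and smooth muscle switching, was also highest in endothelial-like cells, at 496, 644 and 645 CPM. Fibroblast-like cells followed with 290.4, 304 and 558 CPM, so the classes overlapped through the APOE4 library. Klf4 was 1.42 higher in endothelial-like cells than in the mean of the others (log2, SE 0.30, edgeR adjusted p = 0.0017). Without the APOE2 library, which held 115 of the 145 endothelial-like cells, the difference was 1.19 with an adjusted p of 0.089. Smooth muscle-like cells held 181, 195 and 479 CPM of Klf4. B lymphocyte-like cells were lowest among the tested classes, with 58.0, 12.5 and 121 CPM (log2 difference -1.89, SE 0.41, edgeR adjusted p = 0.0019). The Klf4 level that free smooth muscle RNA could carry into them was 65.7, 35.9 and 87.9 CPM.

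The endothelial-like class was also high in an endothelial shear response list. The list holds Nos3 and Thbd beside inflammatory genes such as Vcam1, Sele, Ccl2 and Icam1. The count did not separate genes by the direction in which flow moves them, and a contrast between cell types does not measure a response to flow. Of 8 genes, 6 were higher in endothelial-like cells and none lower, where 16.6% of all genes passed either way. The median log2 difference was 3.95 against -0.10 over all genes tested. Nos3, which makes nitric oxide, differed by 7.13 (edgeR adjusted p = 1.1e-11), the vasoconstrictor gene Edn1 by 6.91 (6.3e-11) and the anticoagulant receptor gene Thbd by 3.52 (2.6e-08).

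Klf6 (ENSMUSG00000000078, chr13:5861482-5870394, plus strand), an injury-induced factor of broad expression, was highest in macrophage-like cells, with 816, 1047 and 764 CPM. Smooth muscle-like cells held 344, 430.3 and 477 CPM and fibroblast-like cells 179, 217 and 246 CPM. The macrophage-like values lay above every smooth muscle-like and fibroblast-like value and overlapped the few neutrophil-like cells. The log2 difference from the mean of the other classes was 1.58 in macrophage-like cells (SE 0.15, edgeR adjusted p = 5.6e-08). In fibroblast-like cells Klf6 was 0.96 lower on the same scale (edgeR adjusted p = 2.0e-04), short of 2-fold, and without the APOE4 library this passed 2-fold at -1.09.

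Klf10 (ENSMUSG00000037465, chr15:38291463-38300706, minus strand), a gene induced by TGF-beta, stood at 63.8, 102 and 121 CPM in macrophage-like cells and at 47.9, 54.7 and 91.6 CPM in fibroblast-like cells. Smooth muscle-like cells held 21.7, 24.2 and 68.8 CPM. All 3 classes had their highest value in the APOE4 library, and they overlapped. Endothelial-like cells held 88.0, 45.3 and 78.7 CPM. The few neutrophil-like cells had 48.5, 82.0 and 330.8 CPM, the highest mean of the named classes. Klf10 was higher in macrophage-like cells by 1.18 (log2, SE 0.24, edgeR adjusted p = 6.0e-04), and by 0.93 without the APOE3 library (adjusted p = 0.040). It was lower in B lymphocyte-like cells, at 50.8, 12.5 and 19.9 CPM (log2 difference -1.27, SE 0.44, edgeR adjusted p = 0.036). That last call was lost without the APOE3 library (-1.21, adjusted p = 0.099) and without the APOE4 library (-0.12, adjusted p = 0.96).

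Klf15 (ENSMUSG00000030087, chr6:90462576-90475238, plus strand), a glucocorticoid-induced factor of muscle and metabolism, was highest in smooth muscle-like cells, at 38.1, 44.1 and 31.9 CPM. Fibroblast-like cells followed at 18.6, 25.7 and 18.2 CPM, and macrophage-like cells at 8.66, 17.0 and 9.98 CPM. Neither step overlapped. The smooth muscle-like mean of 38.0 ± 6.13 CPM (SD, n = 3 libraries) lay 2.04 above the mean of the other classes on the log2 scale (SE 0.15, edgeR adjusted p = 2.4e-09). Free smooth muscle RNA could carry 6.92, 15.3 and 8.77 CPM of Klf15 into macrophage-like cells, close to the levels read there, and 4.34, 6.49 and 4.39 CPM into fibroblast-like cells, below them. In endothelial-like cells Klf15 was 6.34, 0 and 7.87 CPM, and 0 of 110287 UMIs in the APOE3 library allows up to 27.2 CPM. Its call there (log2 difference -1.25, edgeR adjusted p = 0.034) was lost without any 1 of the libraries, with -2.01 (adjusted p = 0.34) without APOE2, -1.04 (0.10) without APOE3 and -1.32 (0.10) without APOE4.

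Klf9 (ENSMUSG00000033863, chr19:23141226-23168134, plus strand), which glucocorticoids and thyroid hormone induce, was level between the mural and the adventitial cells. Smooth muscle-like cells held 372, 316 and 378 CPM and fibroblast-like cells 321, 348 and 382 CPM. Endothelial-like cells had 190.3, 281 and 142 CPM and macrophage-like cells 108, 123 and 147 CPM, and neither class overlapped the first pair. Klf9 passed in both, by 1.36 in smooth muscle-like cells (log2, SE 0.16, edgeR adjusted p = 1.2e-06) and by 1.22 in fibroblast-like cells (SE 0.16, adjusted p = 5.6e-06). It was lower in T lymphocyte-like cells (-1.09, SE 0.22, adjusted p = 6.6e-04) and B lymphocyte-like cells (-1.11, SE 0.24, adjusted p = 0.0019). Without the APOE4 library these were -0.93 (adjusted p = 0.018) and -0.95 (0.095). The B lymphocyte-like level of 119.7, 62.5 and 69.5 CPM was about what free smooth muscle RNA could carry, 135, 58.3 and 69.4 CPM.

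Klf5 (ENSMUSG00000005148, chr14:99298691-99315036, plus strand), a growth factor-induced member of smooth muscle and epithelium, was scarce. Fibroblast-like cells held 7.04, 16.1 and 17.3 CPM and smooth muscle-like cells 2.14, 2.65 and 5.38 CPM, with no overlap. T lymphocyte-like cells, at 5.49, 27.0 and 7.89 CPM, overlapped the fibroblast-like ones. Macrophage-like cells held only 3, 2 and 3 UMIs, and B lymphocyte-like cells 0, 0 and 0.74 CPM. The neutrophil-like cells, which were not in the fit, had 40.9, 41.0 and 73.5 CPM. Klf5 was 2.71 higher in fibroblast-like cells than in the mean of the other classes (log2, SE 0.30, edgeR adjusted p = 4.8e-07). It also passed in T lymphocyte-like cells (1.79, SE 0.54, adjusted p = 0.015), on 5, 4 and 7 UMIs, and this was lost without the APOE2 library (1.47, adjusted p = 0.18) or the APOE3 library (1.37, adjusted p = 0.064).

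Klf3 (ENSMUSG00000029178, chr5:64803388-64832901, plus strand), a repressor best known from blood cells and fat, was 191, 209 and 205 CPM in endothelial-like cells and 66.5, 59.8 and 55.6 CPM in smooth muscle-like cells, the lowest class. The groups lay far apart, but the log2 differences of 0.91 in endothelial-like (edgeR adjusted p = 3.1e-04) and -0.90 in smooth muscle-like cells (1.8e-05) did not reach 2-fold. T lymphocyte-like cells held 135, 243 and 187 CPM of Klf3 (log2 difference 0.66, edgeR adjusted p = 0.0016). The few neutrophil-like cells had 133, 410 and 184 CPM, the highest mean of the named classes. Klf13 (ENSMUSG00000052040, chr7:63886351-63938915, minus strand), which regulates the chemokine gene Ccl5 in T cells, was nearly even across the classes. Its smooth muscle-like values were 155, 161 and 159 CPM, its fibroblast-like values 129, 125 and 128 CPM and its T lymphocyte-like values 218, 176 and 211 CPM. No class passed for Klf13.

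**Figure D1:**
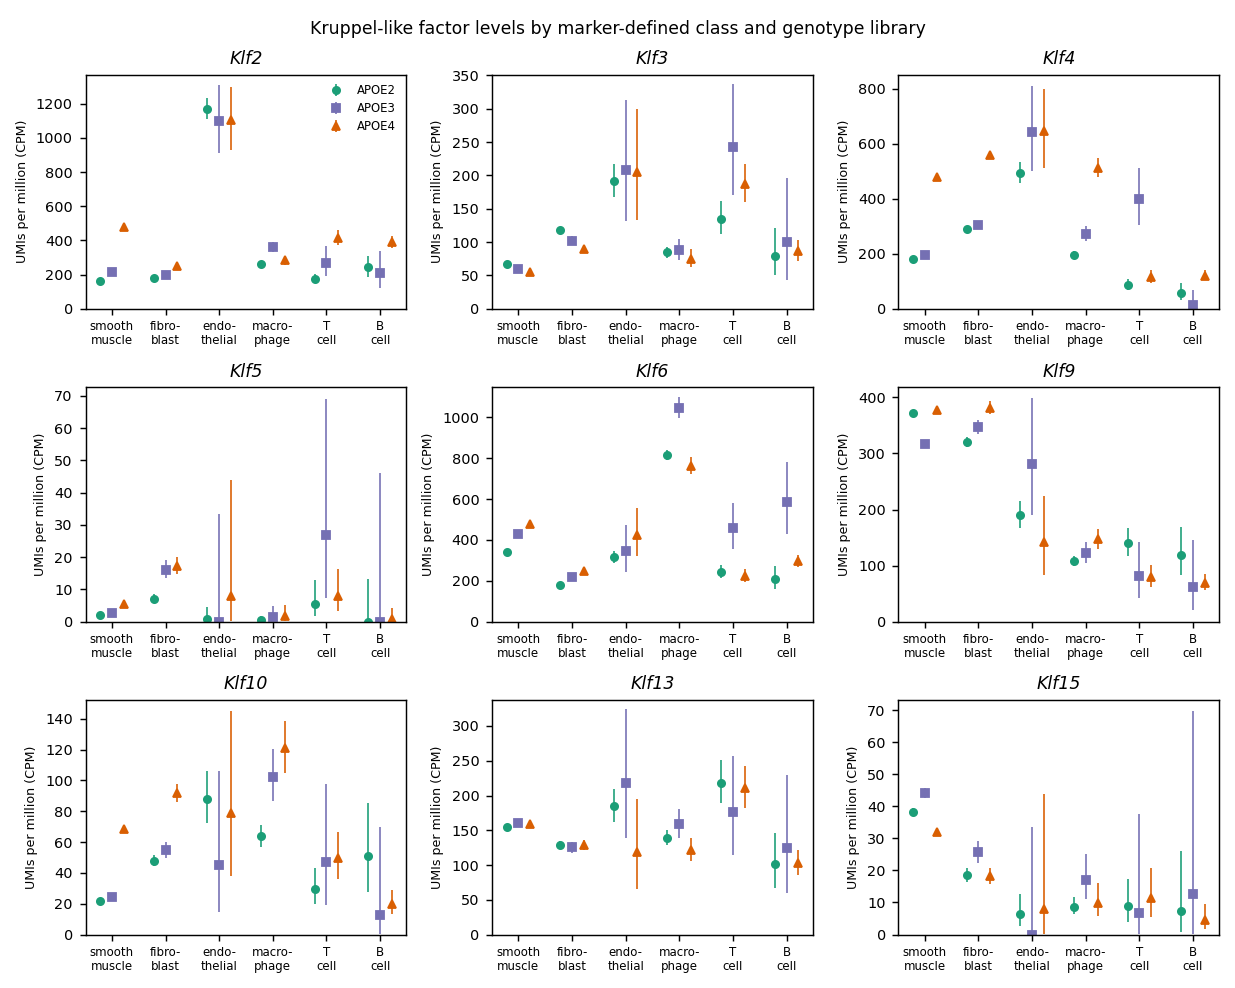
Level of the 9 KLF genes in CPM (vertical axes) in 6 named cell classes (horizontal axes), 1 point per genotype library with its 95% Poisson counting interval. Klf2 stands highest in endothelial-like cells in all 3 libraries (1097 to 1171 CPM), Klf6 in macrophage-like cells (764 to 1047 CPM) and Klf15 in smooth muscle-like cells (31.9 to 44.1 CPM).

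The plot of levels by class shows the small classes with wide intervals, since the APOE3 endothelial-like cells gave 110287 UMIs in all against 79280652 for APOE3 smooth muscle-like cells. Intervals cover counting error only.

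The genotype comparison asked how the members differed between the APOE2, APOE3 and APOE4 libraries within a class. With 1 library each there is no test, and a ratio of at least 1.5-fold either way was counted, for genes with at least 50 UMIs in the pair. The APOE2 to APOE3 and the APOE4 to APOE3 ratios share the APOE3 library.

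In smooth muscle-like cells, 4 of 9 members passed 1.5-fold in APOE4 against APOE3, all higher, where 10.9% of all genes passed. Klf10 rested on 6028 and 1918 UMIs and differed by 1.51 on the log2 scale (95% counting interval 1.43 to 1.58). Klf4 differed by 1.30 (1.27 to 1.32) and Klf2 by 1.15 (1.12 to 1.17). Klf5 differed by 1.02 (0.79 to 1.26), on 472 and 210 UMIs. Fos differed by 0.65 and Jun by 0.17 in the same cells. Klf6 (0.15), Klf9 (0.26), Klf3 (-0.11) and Klf13 (-0.02) stayed within 1.5-fold, and Klf15 was the lowest at -0.47 (-0.54 to -0.40).

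Against APOE2, the same 4 members were past 1.5-fold in APOE4 smooth muscle-like cells, where 16.5% of all genes passed. The log2 ratios were 1.67 for Klf10, 1.55 for Klf2, 1.40 for Klf4 and 1.33 for Klf5. In cells without Fos and Jun UMIs those of Klf2 and Klf4 were -0.00012 and -0.22. Between APOE2 and APOE3, 0 of 9 passed (11.1% of all genes did), and the largest ratios were -0.40 for Klf2 and -0.32 for Klf6. Klf2, Klf4, Klf5 and Klf10 were thus past 1.5-fold in both comparisons that hold the APOE4 library and in none without it.

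In fibroblast-like cells, 2 of 9 members passed in APOE4 against APOE3 (9.84% of all genes), Klf4 with 0.87 (95% counting interval 0.81 to 0.94) and Klf10 with 0.74 (0.59 to 0.91). Klf2 was at 0.33 there, below 1.5-fold. Against APOE2, 3 of 9 passed (13.3% of all genes), with Klf5 at 1.29 and Klf4 and Klf10 at 0.94 each. In APOE2 against APOE3, 1 of 9 passed (10.7% of all genes), Klf5 at -1.20 on 110 and 140 UMIs. Fos differed by 1.27 and Jun by 0.82 between APOE4 and APOE3 fibroblast-like cells, and only the Fos difference was larger than that of every member.

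In macrophage-like cells, Klf4 passed as 1 of 7 members tested in APOE4 against APOE3 (15.8% of all genes), with 0.91 (95% counting interval 0.74 to 1.08), while Klf2 stood at -0.34 and Klf6 at -0.45. Its level was 196, 274 and 514 CPM, of which free smooth muscle RNA could carry 32.9, 67.7 and 132 CPM. Against APOE2, 2 of 8 passed (19% of all genes), Klf4 with 1.39 and Klf10 with 0.92. In APOE2 against APOE3, 2 of 8 passed (18.5% of all genes), Klf10 with -0.68 and Klf15 with -0.97 on 43 and 25 UMIs. Both turned in cells without Fos and Jun UMIs, to 0.094 and 0.15, and Klf15 to 0.48 as a mean over cells. The cells without Fos and Jun numbered only 74 and 25, and no UMI minimum was set within them. Klf10 stood at 37.5 and 35.1 CPM there and Klf15 at 9.73 and 8.79 CPM, so both turned ratios rested on few UMIs. The Klf15 levels of 8.66 and 17.0 CPM in the whole class stood beside 6.92 and 15.3 CPM that smooth muscle RNA could carry. The 10 smooth muscle markers summed to 9877 and 20922 CPM in macrophage-like cells.

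**Figure D2:**
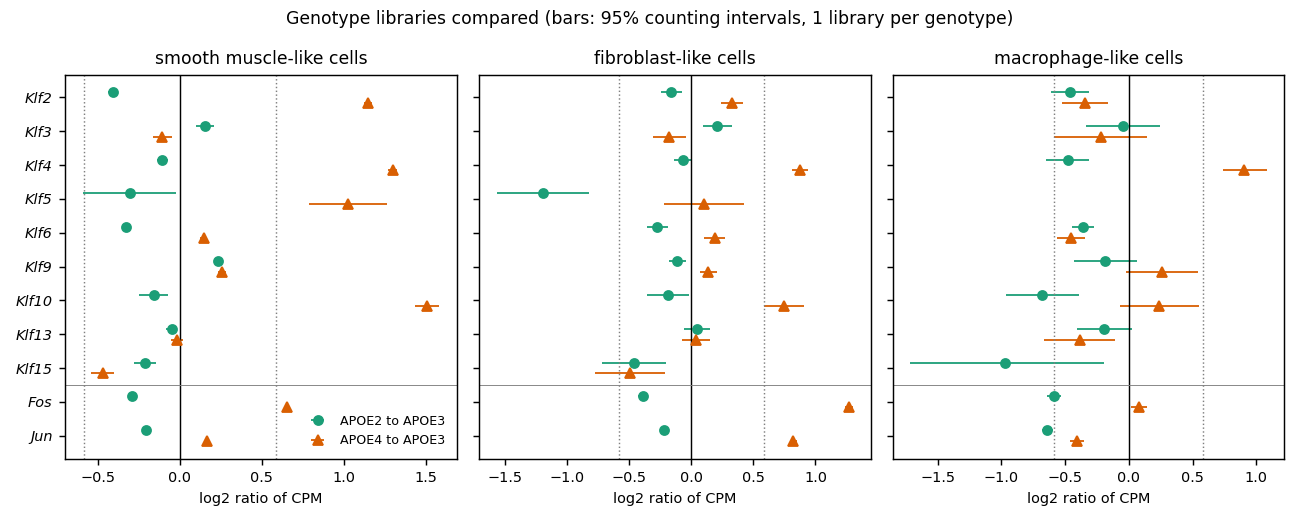
Log2 ratio of CPM of APOE2 (circles) and APOE4 (triangles) to APOE3 (horizontal axis) for each KLF gene, Fos and Jun (vertical axis) in smooth muscle-like, fibroblast-like and macrophage-like cells, with 95% counting intervals and dotted lines at 1.5-fold. Klf2, Klf4, Klf5 and Klf10 lie to the right of the line for APOE4 in smooth muscle-like cells (1.02 to 1.51 against APOE3), and members without enough UMIs are absent.

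Since Fos and Jun also differed between the libraries, cells were divided by their summed Fos and Jun UMIs after each cell was thinned to 1000 UMIs. Cells called without Fos and Jun had none among those 1000 UMIs, and could hold some in their full counts. Cells under 1000 UMIs were left out, 56, 29 and 59 of the smooth muscle-like, 1, 1 and 0 of the fibroblast-like and 62, 14 and 28 of the macrophage-like ones. Of the other smooth muscle-like cells, 58.6% (95% exact binomial interval 57.4 to 59.7), 59.3% (57.8 to 60.9) and 77.8% (76.6 to 78.9) had 3 or more such UMIs. Among fibroblast-like cells these shares were 29.4% (26.9 to 31.9), 31.7% (28.2 to 35.3) and 61.8% (58.7 to 64.8). Among macrophage-like cells they were 55.7%, 62.7% and 52.8%, with overlapping intervals. Unthinned, when depth enters, the shares were 93.3%, 93.5% and 94.0% in smooth muscle-like cells, 76.3%, 73.3% and 89.6% in fibroblast-like cells and 83.1%, 76.9% and 70.2% in macrophage-like cells. At equal depth the APOE4 share was the highest in smooth muscle-like and fibroblast-like cells and the lowest in macrophage-like cells.

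Cells with 3 or more Fos and Jun UMIs were compared with cells that had none, within each library, by edgeR with the library as a block. In smooth muscle-like cells 8 of 9 members were higher (11.8% of 14691 genes passed an adjusted p of 0.05 in either direction), in fibroblast-like cells 6 of 9 (14.1%), and in macrophage-like cells 0 of 7 (0.049%). Fos and Jun differ here by construction. Without the library as a block, only Klf2, Klf4 and Klf6 passed in smooth muscle-like and in fibroblast-like cells, 6 calls in place of 14. Calls over all genes fell as well, from 1727 to 180 in smooth muscle-like and from 1679 to 479 in fibroblast-like cells.

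Klf4 went from 48.4, 40.4 and 41.5 CPM in smooth muscle-like cells without Fos and Jun to 252, 268 and 554 CPM in those high for both. The log2 difference was 2.98 (SE 0.21, edgeR adjusted p = 4.5e-05). Klf2 went from 60.2, 52.4 and 60.2 CPM to 219, 299 and 549.9 CPM, a difference of 2.57 (SE 0.20, adjusted p = 9.4e-05). In both genes the 3 libraries were close to one another in cells without Fos and Jun and the APOE4 library stood apart in the high cells.

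Klf6 rose from 188, 194 and 146 CPM to 415, 540.2 and 534 CPM (log2 difference 1.56, SE 0.12, edgeR adjusted p = 7.2e-05). Klf10 rose from 10.2, 8.32 and 17.9 CPM to 26.2, 31.2 and 76.4 CPM (1.85, SE 0.13, adjusted p = 4.5e-05). Klf5 rose by 1.66 (SE 0.24, adjusted p = 0.0034). For Klf10 the APOE4 value was the highest in both kinds of cell. Klf9 (0.53, adjusted p = 3.3e-04), Klf13 (0.30, 0.015) and Klf3 (0.26, 0.018) rose by less than 1.5-fold. Klf3 and Klf13 lost their calls without the APOE3 library (0.26, adjusted p = 0.17, and 0.32, 0.13).

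Klf15 did not pass, with 33.5, 39.8 and 34.3 CPM in cells without Fos and Jun and 40.1, 46.5 and 31.8 CPM in the high cells (log2 difference 0.22, SE 0.07, edgeR adjusted p = 0.097). Without the APOE4 library, the only one in which Klf15 was lower in the high cells, the difference was 0.32 and passed (adjusted p = 0.0045).

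**Figure D3:**
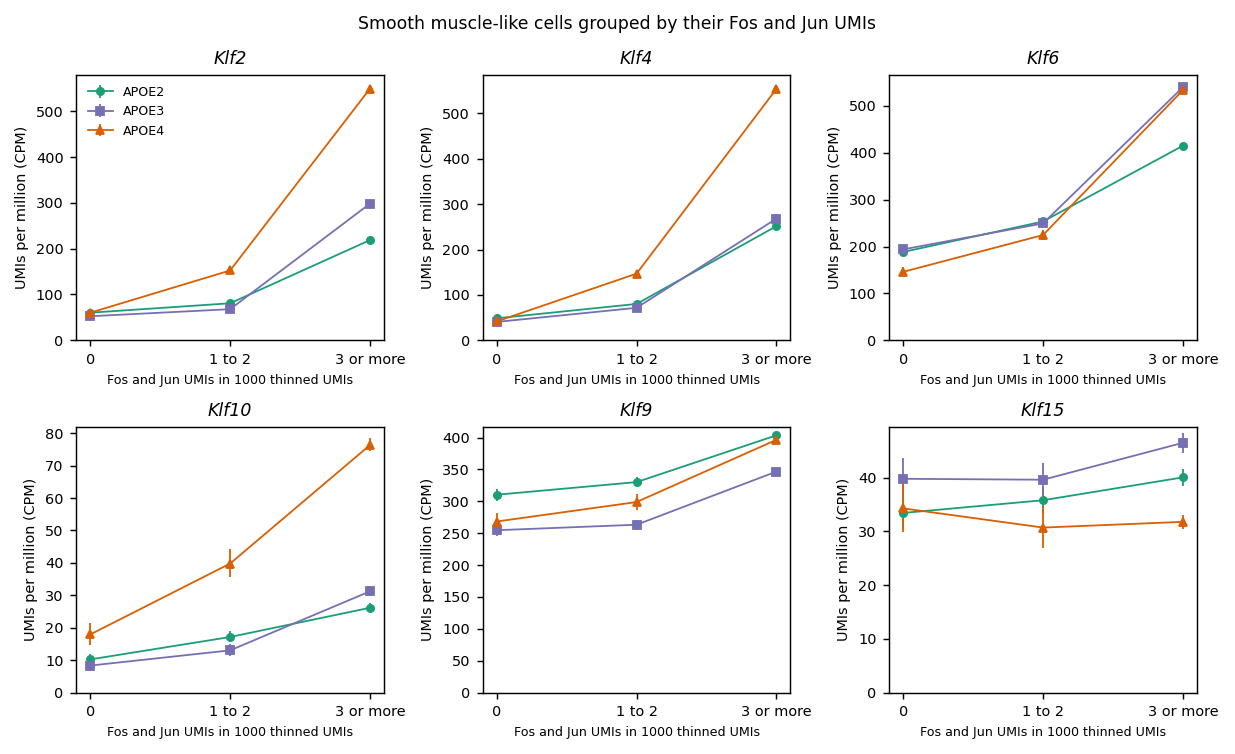
CPM of Klf2, Klf4, Klf6, Klf10, Klf9 and Klf15 (vertical axes) in smooth muscle-like cells with 0, 1 or 2, and 3 or more Fos and Jun UMIs of 1000 (horizontal axes), 1 line per genotype library. Klf2 and Klf4 start at 40.4 to 60.2 CPM in all libraries and reach 219 to 554 CPM, while Klf15 stays between 30.7 and 46.5 CPM.

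In fibroblast-like cells Klf4 went from 195, 187 and 271 CPM to 444, 454 and 694 CPM (log2 difference 1.34, SE 0.07, edgeR adjusted p = 4.0e-07). Klf6 differed by 1.13 (2.9e-06), Klf2 by 0.84 (0.0012), Klf10 by 0.66 (9.5e-04), Klf9 by 0.47 (0.0027) and Klf13 by 0.46 (0.0082). Klf3 (-0.23, adjusted p = 0.12), Klf5 (-0.31, 0.39) and Klf15 (0.48, 0.077) did not pass, and Klf15 passed without the APOE4 library (0.62, 0.040).

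In macrophage-like cells edgeR called no member after adjustment, with 4 at an unadjusted p under 0.05 and 1 called by DESeq2. The cells without Fos and Jun numbered 74, 25 and 31, and those of the APOE3 library had a median of 2054 UMIs. Acta2 in macrophage-like cells stood at 18.2%, 34.7% and 27.5% of its smooth muscle-like level. The part of carried Fos and Jun RNA in this split was not tested. Klf4 had the largest difference, 2.08 (SE 0.31, edgeR adjusted p = 0.11). Without the APOE4 library Klf4 (1.81), Klf2 (1.61), Klf6 (1.54) and Klf10 (1.32) passed, among 197 genes that did. With all libraries 4 genes passed, and without the APOE2 or the APOE3 library 0 did.

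When genotypes were set side by side within smooth muscle-like cells without Fos and Jun UMIs, 1 of 8 members with at least 50 UMIs in the pair was past 1.5-fold in APOE4 against APOE3, where 6.43% of all genes were. This was Klf10, at 1.11 (95% counting interval 0.70 to 1.52), and Klf4 was at 0.04 and Klf2 at 0.20. Against APOE2, 1 of 8 was past it (9.34% of all genes), Klf10 at 0.81, with Klf2 at -0.00012 and Klf4 at -0.22. Klf5 had 18, 9 and 11 UMIs in these cells, too few for the comparison. In the high cells 4 of 9 were past 1.5-fold in APOE4 against APOE3 (10.2% of all genes), with Klf10 at 1.29, Klf4 at 1.05, Klf2 at 0.88 and Klf5 at 0.78. Against APOE2, 4 of 9 were (15.8% of all genes), with Klf10 at 1.55, Klf2 at 1.33, Klf5 at 1.17 and Klf4 at 1.14. Klf2 and Klf4 were thus past 1.5-fold in APOE4 in cells high in Fos and Jun and not in cells without, and Klf10 in both. The high group has no upper bound, so its cells were not matched for Fos and Jun between libraries. The part of tissue dissociation in these differences was not tested.

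The smooth muscle-like class included 8 clusters with at least 30 cells in every library. The KLF genes and the listed immediate early and heat shock genes were kept out of the clustering. Genes outside that list, such as Gadd45b and Csrnp1, were not left out, so clusters were not formed independently of all such genes. Over these clusters Klf2 spanned 68.0 to 384 CPM in APOE2, 67.2 to 453 CPM in APOE3 and 152 to 664 CPM in APOE4. Klf4 spanned 65.4 to 408, 66.9 to 432 and 222 to 699 CPM. Klf2, Klf4, Klf5 and Klf10 were higher in APOE4 than in APOE3 in 8 of 8 clusters. The median log2 ratio over clusters was 1.84 for Klf10 (0.95 to 2.22), 1.70 for Klf2 (0.55 to 2.65), 1.68 for Klf4 (0.69 to 2.56) and 1.11 for Klf5 (0.38 to 3.37). No UMI minimum was set per cluster, and Klf5 was only 1.00 to 4.86 CPM in APOE3 and 1.90 to 10.4 CPM in APOE4. Its ratio of 3.37 came from a cluster with 1.00 CPM among 2999257 UMIs in APOE3, so the Klf5 ratios rested on few UMIs. Fos was higher in 8 of 8 as well, with a median of 0.83 (0.20 to 2.09). Klf15 was lower in 8 of 8, with a median of -0.41 (-0.63 to -0.21), and its lowest ratio was past 1.5-fold. Clusters come from the same 3 libraries and are not replicates.

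Of these, the cluster highest in Fos (5462, 6258 and 7196 CPM) also had the highest mean Klf2 of the 8 clusters, 384, 453 and 664 CPM, and the highest mean Klf4, 408, 432 and 699 CPM. Its leading genes included Atf3, Gadd45b, Csrnp1, Irf1 and the heat shock gene Dnajb1. It held 15.0%, 21.8% and 28.4% of the smooth muscle-like cells. Leaving it out, an alternative added after the data were seen, left 4 of 9 members past 1.5-fold in APOE4 against APOE3 (10% of all genes), with Klf10 at 1.94, Klf4 at 1.82, Klf2 at 1.62 and Klf5 at 1.44.

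**Figure D4:**
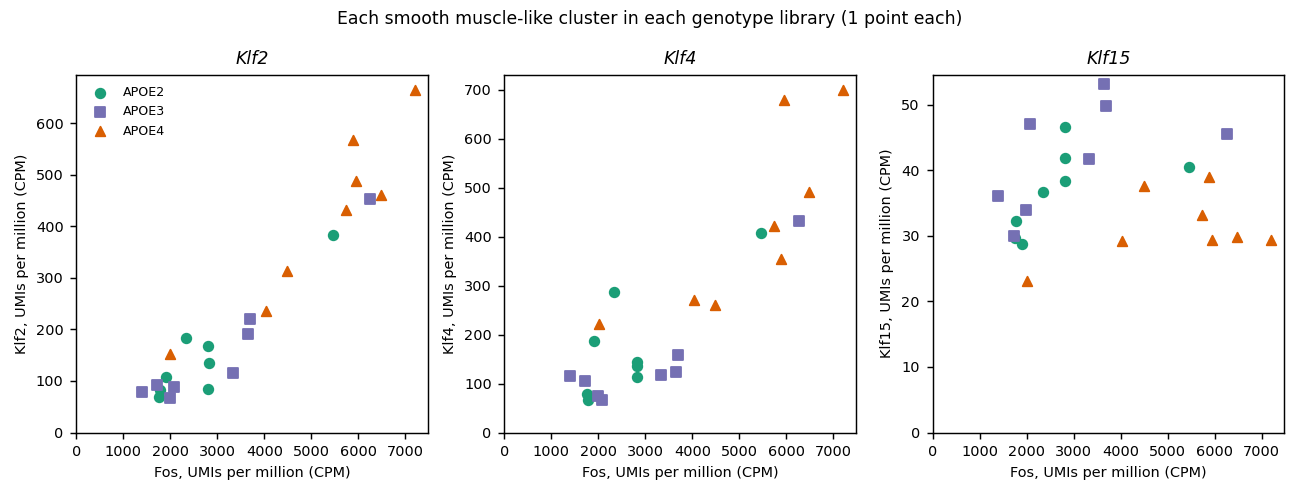
CPM of Klf2, Klf4 and Klf15 (vertical axes) against CPM of Fos (horizontal axes) in the 8 smooth muscle-like clusters of each genotype library. The cluster with the most Fos reaches 664 CPM of Klf2 and 699 CPM of Klf4 in APOE4, the highest points of both plots, and Klf15 lies between 23.1 and 53.1 CPM over the whole range of Fos.

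The macrophage-like cells held 285 cells with resident genes (Lyve1, Folr2 and Cd163), 63 with foam genes, 61 of them from the APOE2 library, and 560 others. Klf4 was 263, 327 and 699 CPM in the resident-gene cells and 171, 211 and 351 CPM in the others. Both kinds were highest in APOE4. The 61 foam-gene cells of APOE2 had 127 CPM of Klf4, 88.1 of Klf2 and 626 of Klf6, below the other macrophage-like cells of that library (171, 280.2 and 909 CPM). Without the foam-gene cells, also an added alternative, the APOE2 to APOE3 ratio of Klf10 in macrophage-like cells was -0.42, under 1.5-fold, and that of Klf15 was -0.72.

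In T cells Klf2 keeps naive and memory cells circulating by raising S1pr1. The T lymphocyte-like class held 70 cells with thymocyte genes, which had 40.5, 84.0 and 92.4 CPM of Klf2 (the APOE3 value on 3 UMIs in 4 cells), and 174 others, which had 249, 329 and 557 CPM. The ranges did not overlap. S1pr1, the receptor for exit from lymphoid organs, was 1.59 CPM over the thymocyte-gene cells and 152 CPM over the others. Against the mean of the other classes, S1pr1 was higher by 2.14 on the log2 scale in T lymphocyte-like cells (edgeR adjusted p = 4.4e-05), by 3.25 in B lymphocyte-like cells (4.6e-07) and by 4.20 in endothelial-like cells (4.6e-09).

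Beside the members, 5 of 8 other KLF genes and 4 of 9 SP genes, their closest relatives, had enough UMIs in the class fit. Klf7 was higher in endothelial-like cells (1.71, edgeR adjusted p = 2.0e-06), Klf11 likewise (1.21, 0.028), Klf12 in fibroblast-like cells (1.08, 3.1e-07) and Klf8 in smooth muscle-like cells (1.06, 0.010). Lower were Klf12 in macrophage-like (-1.42, edgeR adjusted p = 6.0e-07) and T lymphocyte-like cells (-1.02, 5.1e-04), Klf11 in T lymphocyte-like cells (-1.41, 0.022) and Klf7 in B lymphocyte-like cells (-1.16, 0.0030). No SP gene passed in any class. In APOE4 against APOE3 smooth muscle-like cells none of the 5 was past 1.5-fold, and of the SP genes Sp4 was (0.68), where 10.9% of all genes passed. Between Fos and Jun high smooth muscle-like cells and those without, 3 of the 5 were higher (11.8% of all genes passed either way). These were Klf11 by 1.21, Klf16 by 0.90 and Klf7 by 0.24. Of the SP genes, Sp4 alone passed there, higher by 0.45 (edgeR adjusted p = 0.016).

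The immediate early list holds genes that, like Fos, are switched on within minutes of a stimulus. In smooth muscle-like cells, 7 of 19 immediate early and heat shock genes were past 1.5-fold higher in APOE4 against APOE3 and none lower, with a median log2 ratio of 0.54 against -0.09 over all genes. Of all genes, 10.9% were past 1.5-fold either way. Junb was at 1.02, Fosb at 0.92 and Egr1 at 0.79. In fibroblast-like cells 14 of 19 were past 1.5-fold higher (9.84% of all genes passed), with a median of 0.96. All 19, Fos and Jun by construction, were higher in the Fos and Jun high cells of both classes (11.8% and 14.1% of all genes passed). Of 8 glucocorticoid response genes, which share inducers with Klf9 and Klf15, 3 were past 1.5-fold higher in APOE4 against APOE3 smooth muscle-like cells (10.9% of all genes). Of 6 TGF-beta response genes, which share an inducer with Klf10, 4 were higher in smooth muscle-like cells than in the mean of the other classes (26% of all genes passed). Klf10 itself was at -0.52 there and did not pass (edgeR adjusted p = 0.067). Against APOE3, the APOE2 smooth muscle-like cells had 3 of the 8 glucocorticoid response genes past 1.5-fold higher (11.1% of all genes passed). These were Fkbp5 (1.83), Mt1 (1.84) and Mt2 (1.94), at Klf9 and Klf15 log2 ratios of 0.24 and -0.21.

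Over the 21 pairs of class and library, the genes most like each member in their pattern of log2(CPM + 1) were sought among 12183 genes by Pearson correlation. These points share libraries and smooth muscle RNA, and the values describe likeness only. For Klf2 they were Selp (r = 0.91), C1qtnf9 (0.87) and Ccm2l (0.84), for Klf6 Iqgap1 (0.83), Ier5 (0.82) and Cd68 (0.82), and for Klf15 Rnd2 (0.97), Fibin (0.94) and Cys1 (0.93). Klf9 was closest to Eva1b (0.98), Klf4 to Atxn2 (0.93), Klf13 to Etaa1 (0.92), Klf5 to Prdx6 (0.86), Klf3 to Myh9 (0.83) and Klf10 to Pcyt1a (0.82). Among the members themselves Klf4 and Klf9 were the most alike (0.81), and Klf3 and Klf15 the least (-0.74).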

How the data were processed

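Aortic cells of 3 genotype pools were profiled by droplet single-cell RNA sequencing, with 1 library per genotype. The authors deposited filtered matrices of UMI counts, aligned to mm10 per the labels and made with Cell Ranger 7.0.1 per the file headers. Whether intronic reads were counted is not given in the sources used here. No column went unused (0).

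Cells with at least 200 genes and under 20% mitochondrial UMIs were kept. They were normalized per library, and the libraries were integrated by canonical correlation before clustering. Since each library was 1 genotype, this also aligned the genotypes. Seurat 5.3.0 and sctransform 0.4.2 were used (3000 features, 30 components, resolution 0.8). The KLF and SP genes and the listed immediate early and heat shock genes were left out of the features. Clusters were named from marker lists as "-like" classes. A cluster stayed unnamed where it held fewer than 3 raised markers, markers of another type, or low UMIs without its own markers among its leading 10 genes. Scrublet's automatic threshold marked almost no cells and so did not work. No doublets were removed, and leaving out the cells with the highest scores (8.47%, 4.87% and 6.32%) was an alternative.

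Counts were summed per class and library. CPM is UMIs per 1000000 UMIs of the class in that library. Class contrasts and Fos and Jun contrasts were fitted on the summed counts with edgeR 4.0.16 (quasi-likelihood test, R 4.3.3, library as a block, Benjamini-Hochberg adjustment over all genes fitted), with DESeq2 1.42.0 as an alternative, and the procedure was checked on simulated data. Neutrophil-like cells had fewer than 10 cells in 1 library and were not in the class fit. Genotype ratios of single genes used no prior, and counts and medians over all genes and gene lists used a prior of 0.5 UMIs. Both needed at least 50 UMIs in the pair and 30 cells per library. For alternatives the UMI minimum was set on the whole class unless stated, and ratios per cluster had none. The intervals of the ratios are exact and cover counting error only. A count of 0 allows up to 3 counts. Shares of cells were taken after thinning each cell to 1000 UMIs (3000 as an alternative). Depth was 97990178, 79280652 and 87676620 UMIs in smooth muscle-like cells and 110287 to 1261121 in endothelial-like cells, so precision was lowest in the latter.

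All 9 members were described. Other genes were named by their list, as the highest Pearson correlations, or as leading genes of a cluster, and the SP, KLF and response genes given singly were picked from their lists by their values. The members and lists were chosen with earlier results of these data known. Alternatives were other clustering resolutions, libraries merged without integration, naming cell by cell and stricter cell filters. Others were other normalizations, no filter on low counts, a mean over cells, thinning depth, no block and leaving out each library. Python 3.11.15 and scipy 1.17.1 were used. The lymphocyte trafficking list as a whole is not reported here.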

Additional observations from a re-analysis of the deposited data

Results flagged for a closer look

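For Klf3 and Klf5, the change with Fos and Jun had 1 sign in all 3 libraries of a class and the opposite sign in all 3 of another, and these differences between classes were not tested. The log2 change from cells without Fos and Jun UMIs to cells with 3 or more was 0.13, 0.19 and 0.26 for Klf3 in the APOE2, APOE3 and APOE4 smooth muscle-like cells and -0.12, -0.50 and -0.34 in fibroblast-like cells, so that the smooth muscle-like mean was 0.51 above the fibroblast-like one. In macrophage-like cells Klf3 changed by 0.26, 0.17 and 0.43, which placed the fibroblast-like mean -0.61 from the macrophage-like one. Klf5 changed by 1.05, 2.09 and 1.80 in smooth muscle-like cells and by -0.18, -0.97 and -0.02 in fibroblast-like cells, a difference of 2.03. Neither gene passed the test in fibroblast-like cells (edgeR adjusted p = 0.12 for Klf3 and 0.39 for Klf5), nor did Klf3 in macrophage-like cells (0.90), and the APOE4 change of Klf5 in fibroblast-like cells was close to 0.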

How the results depend on the processing

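The 14 class calls ranged from 12 to 17 over the alternatives (12 to 13 without 1 library), with 17 when classes were set cell by cell. There Klf15 in endothelial-like cells reversed to 0.75 (edgeR adjusted p = 0.97). The 14 Fos and Jun calls were 6 without the library block and 12 to 20 without 1 library. Over all genes, smooth muscle-like calls went from 1727 to 180 without the block and to 492 to 1727 without 1 library. Fibroblast-like calls went from 1679 to 479 and to 1062 to 1246, and macrophage-like calls from 4 to 10 and to 0 to 197. Between genotypes, no paired analysis was possible because each had 1 library. The 19 genotype ratios past 1.5-fold ranged from 18 to 22, but this total hid opposite shifts between classes. For APOE2 to APOE3, APOE4 to APOE3 and APOE4 to APOE2, smooth muscle-like counts were 0, 4 and 4. In cells without Fos and Jun they were 1, 2 and 1. Macrophage-like counts rose there from 2, 1 and 2 to 4, 3 and 4, with no UMI minimum set within those cells. Fibroblast-like counts went from 1, 2 and 3 to 2, 1 and 2. With the UMI minimum applied within those smooth muscle-like cells, 1 of 8 members passed in APOE4 against APOE3, not 2. In cells without Fos and Jun, the APOE4 to APOE2 ratio in smooth muscle-like cells was -0.00012 for Klf2 and -0.22 for Klf4. In macrophage-like cells the APOE2 to APOE3 ratio reversed for Klf15 to 0.48 as a mean over cells and 0.15 in cells without Fos and Jun, and for Klf10 to 0.094 in the latter. The cells without Fos and Jun numbered only 74 and 25 there, so the ratios in those cells rested on few UMIs. The class with the highest level was the same for 9 of 9 members without the highest doublet scores, for 8 by the share of cells thinned to 1000 UMIs (Klf6 moved to neutrophil-like) or to 3000 UMIs (Klf10 to macrophage-like), for 7 with classes set cell by cell and for 5 by the share without thinning. The cause was not tested.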

Other observations

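Klf2, Klf4 and Klf10 were also read in clusters that kept at least 8 of the 10 smooth muscle markers but stayed unnamed. Acta2 was 15045 to 28558 CPM in the clusters below. They come from the same 3 libraries and are not replicates. In a cluster led by Vcam1 and Timp1, with 701, 393 and 416 cells, Klf2 was 267, 265 and 526 CPM in the APOE2, APOE3 and APOE4 libraries and Klf4 284, 259 and 499 CPM, beside 2338, 2783 and 4805 CPM of Fos. In a cluster led by Rgs5, with 616, 438 and 397 cells, Klf2 was 101, 150 and 431 CPM, Klf4 76.8, 104 and 407 CPM and Klf10 11.7, 14.8 and 57.5 CPM. Both genes were highest in the APOE4 library in each cluster. In a cluster with few UMIs per cell (589, 279 and 292 cells), Klf2 was 151, 114 and 303 CPM and Klf4 153, 104 and 326 CPM. Klf15 was 25.3, 31.2 and 23.9 CPM in the Vcam1 cluster, lowest in APOE4.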
